A study of Mus musculus with 6 samples.

Results

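The GADD45, BTG and IER stress genes are growth arrest and immediate early genes, and they were followed here in neutrophils of cGAS-/- mice kept for 2 h with or without LPS. Members were the rows of the deposited table that carry the symbols *Gadd45a*, *Gadd45b*, *Gadd45g*, *Btg1*, *Btg2*, *Ier2*, *Ier5*, *Gdf15* and *Mdm2*. All 9 were found among the 38739 genes of the table, and all 9 were among the 23049 genes with a value above 0 in at least 1 sample, which were tested. The genes of the table that could be placed lie on chromosomes 1 to 13, with 2 on X, so that counts over all genes, sums and gene lists cover that part of the genome. Both groups came from mice of a C57B/L6 background in which *Cgas*, whose product senses DNA in the cytosol and makes the messenger cGAMP, is knocked out. The neutrophils were peritoneal cells, elicited with thioglycolate and collected by lavage according to the study's methods, which used young adult male mice. The untreated group (n = 3) received medium alone for 2 h, and the LPS group (n = 3) received 500 ng/mL of LPS from E. coli for the same time, as the sample labels give it, whereas the study's methods give a lower dose for the sequenced cells. The labels do not say whether the 3 samples of a group came from separate animals, so p-values measure the spread between these samples only, and no wild-type sample is part of the comparison.

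GADD45 proteins are small nuclear proteins without enzyme activity of their own, which bind partners such as PCNA, p21, the CDK1-cyclin B1 complex and the kinase MAP3K4. Through such partners they can slow the cell cycle and can switch on p38 and JNK signalling. BTG1 and BTG2 belong to the BTG/TOB family of antiproliferative proteins that recruit the CCR4-NOT deadenylase to mRNA, IER2 and IER5 are products of immediate early genes, GDF15 is a secreted stress cytokine of the TGF-β superfamily, and MDM2 is the ubiquitin ligase that holds p53 low. Several of these genes are known targets of p53, and *Gadd45b* is a known target of NF-κB. Mature neutrophils do not divide, and in myeloid cells the GADD45 and BTG genes are known mainly from terminal differentiation and from stress and inflammatory signalling.

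As read from the values, the table holds TPM, a transcript abundance corrected for length and library size, given per gene as a mean over transcripts after division by a constant for the sample, and called scaled TPM here. Because such a mean can run over a different number of transcripts for each gene, levels were compared between samples and not between genes. *Cgas* itself was listed at 0.180 to 0.307 scaled TPM in the untreated and 0.0286 to 0.184 in the LPS samples. The share of all scaled TPM that fell on protein-coding genes was 21.6 to 29.0% without and 50.6 to 60% with LPS, most of the rest being pseudogenes, so that the responses of the members are also given after every sample was scaled to its protein-coding sum. With the values as deposited, the median difference of the 2851 protein-coding genes with a mean of at least 5 was 0.51 on the log2 scale, and 0.07 after that scaling. The defining neutrophil genes *S100a8* (2086 to 19851 scaled TPM) and *S100a9* (5233 to 28393) were high in all samples. Over the genes of the table, log2 values correlated by 0.835 to 0.860 (Pearson) between untreated samples and by 0.939 to 0.968 between LPS samples. Between an untreated and an LPS sample the correlation was 0.810 to 0.831. The untreated samples were thus nearly as unlike one another as they were unlike the LPS samples. Replicate 2 of each group stood apart in its markers. The summed value of 5 B cell markers was 280.3 in untreated replicate 2 against 1085 and 1028 in the other untreated samples, and 261.7 in LPS replicate 2 against 795.5 and 724.9, whereas the sum of 13 neutrophil markers was highest in replicate 2 of both groups (30290 and 57512). The sum of 11 macrophage and monocyte markers was 181.5 to 290.2 without and 325.0 to 444.7 with LPS, of which *Cd68* made up most. Of these 11 genes, *C1qb* was called higher by the limits given below (2.77 to 19.8 in the mean, limma unadjusted p = 0.0019, adjusted p = 0.064). *C1qc* had a mean of 2.28 untreated and 6.97 after LPS (adjusted p = 0.28), *Ccr2* had means of 5.60 and 1.22 with all LPS samples below (adjusted p = 0.21), and *Mertk* and *Cd163* were at or below 0.191 in all samples. In the untreated and the LPS samples, the sums of other markers were 25.7 to 85.1 and 83.1 to 131.7 for mast cells, 15.8 to 20.8 and 7.78 to 20.3 for T cells, 3.1 to 8.52 and 2.02 to 5.31 for eosinophils (with *Epx* at 0), and 0.0422 to 0.553 and 0.239 to 0.603 for mesothelial cells. *Hdc* made up most of the mast cell sums (21 to 46.3 untreated, 61.4 to 82.6 after LPS). *Cpa3* ran from 2.07 to 37.4 untreated and from 1.1 to 40.1 after LPS. The part of these markers in the results was not tested. In such bulk samples, fewer cells of a type and less RNA per cell cannot be told apart.

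The question of the comparison was how LPS changes the transcriptome of neutrophils that lack cGAS. Of the 9 members, *Gadd45b* was called higher after LPS and 0 were called lower by the limits of the study, an unadjusted p under 0.01 with a log2 difference of more than 2. The study applied its limits to a voom fit of counts, whereas here they were applied to limma on log2 values, and voom run on the deposited values called 3 members (*Gadd45a*, *Gadd45b* and *Gdf15*). The same member was the only one with a Benjamini-Hochberg adjusted p under 0.05 over all genes tested (limma). Of all genes tested, 2.99% were called by the first limits (1.69% higher and 1.31% lower) and 1.84% by the second (0.894% higher and 0.946% lower). Of the calls by the first limits, 56.4% were thus higher after LPS, a share that was 30.0% after scaling to the protein-coding sum (0.959% of genes higher and 2.24% lower), 42.8% centred on the median and 89.8% with voom, so that the balance of directions over all genes depended on the scaling. Among the protein-coding genes with a mean of at least 5, the range in which all members lie, 7.96% and 3.72% were called higher. The other members showed 3 kinds of pattern. *Gadd45a* and *Gdf15* had differences of more than 2 on the log2 scale, as 2.52% of all genes did without any limit on p, but did not pass either limit, and their untreated samples were far apart. *Btg1* and *Ier5* differed by less than 1 on that scale, without overlap of the groups. *Btg2*, *Ier2*, *Mdm2* and *Gadd45g* overlapped between the groups. An unadjusted p under 0.05 was reached by 4 members (*Gadd45a*, *Gadd45b*, *Btg1* and *Gdf15*), all higher, and by 10.3% of all genes in that direction. The LPS samples thus lay above all untreated samples in 5 of 9 members, as they did in 13.1% of all genes tested and in 26.9% of the protein-coding genes with a mean of at least 5, and below all of them in 0 members and 9.75% of all genes. After scaling to the protein-coding sum this held for 4 of 9 members, *Ier5* now overlapping, against 8.67% of all genes. The median difference of the members was 0.85 on the log2 scale with the values as deposited and 0.36 after the scaling.

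**Figure D1:**
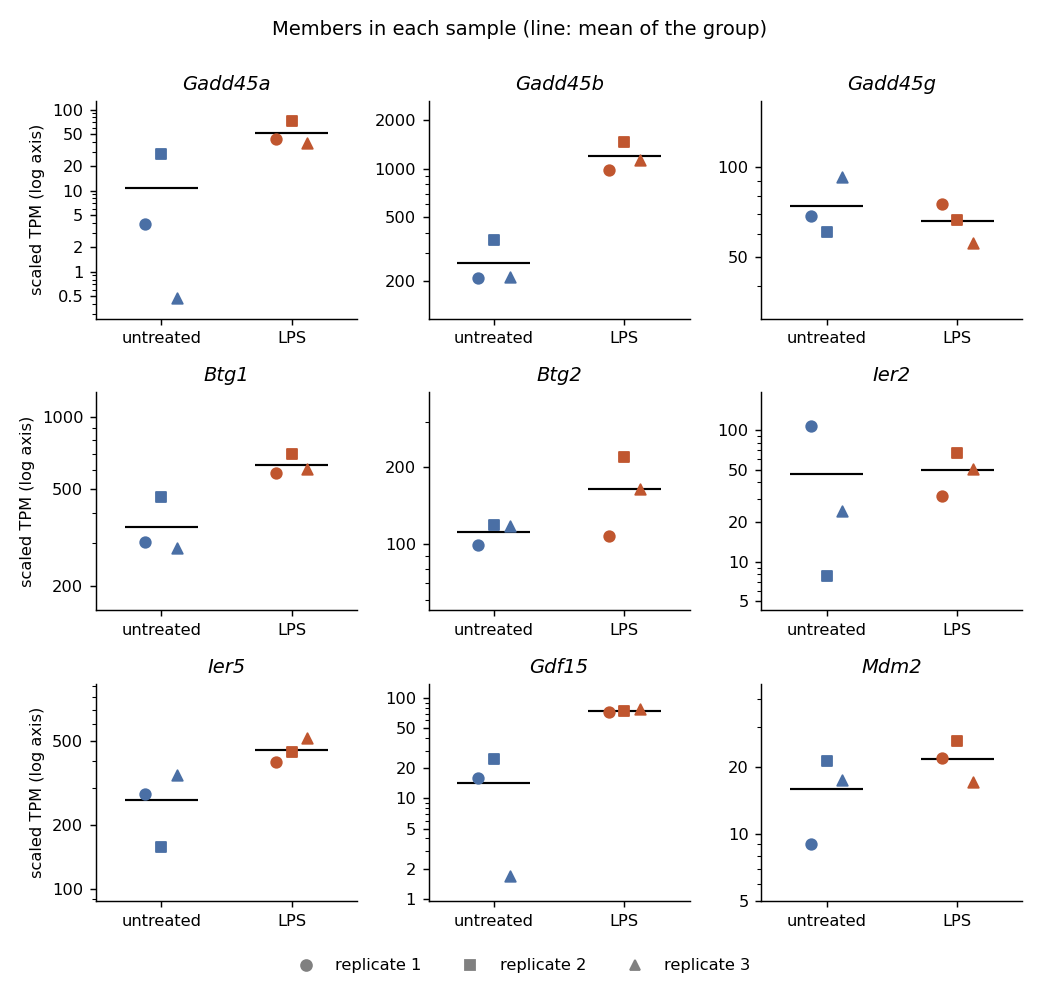
Scaled TPM of each member on a log axis in the 3 untreated (blue) and 3 LPS samples (orange), with the replicate number given by the shape of the point and the mean of the group by a line. The LPS samples lie above all untreated samples in *Gadd45a*, *Gadd45b*, *Btg1*, *Ier5* and *Gdf15*, and *Gadd45a*, *Gdf15* and *Ier2* have the widest spread in the untreated group.

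*Gadd45b*, also known as MyD118 for its induction during myeloid differentiation, lies on chromosome 10 (GRCm39, 80764523 to 80768038, plus strand, ENSMUSG00000015312). It was listed at 210.3, 358.7 and 212.6 scaled TPM in untreated replicates 1, 2 and 3 and at 986.2, 1471 and 1129 in LPS replicates 1, 2 and 3. Each LPS sample was thus above each untreated sample, and replicate 2 was the highest of both groups. The mean rose from 260.5 ± 85.0 to 1195 ± 248.9 (SD, n = 3), 4.59-fold. On the log2(scaled TPM + 1) scale, on which all differences are given, this was 2.22 (SE 0.34, limma unadjusted p = 6.1e-04, adjusted p = 0.042). Scaled to the protein-coding sum, the difference was 1.73 (SE 0.26, limma adjusted p = 0.036), a fold of 3.3, which is past the limit on the adjusted p but not the limit of 2 on the difference. The adjusted p was near its limit, and it was 0.039 without untreated replicate 2 but 0.080 to 0.17 without any one of the other 5 samples, while the difference stayed between 2.06 and 2.47 and past the limits of the study.

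*Gadd45a*, the family member first known as a p53 target after DNA damage, lies on chromosome 6 (67012070 to 67014441, minus strand, ENSMUSG00000036390). Its values were 3.87, 28 and 0.475 in the untreated samples and 42.9, 71.2 and 39.1 in the LPS samples. The groups did not overlap, but untreated replicate 2 was far above the other two untreated samples. The mean was 10.8 ± 15.0 untreated and 51.1 ± 17.6 after LPS (SD, n = 3), and the difference of 3.08 (SE 1.06) was the largest among the members but did not pass (limma unadjusted p = 0.027, adjusted p = 0.21). Scaled to the protein-coding sum it was 2.71 (SE 1.02, adjusted p = 0.27). Without untreated replicate 2 the difference was 4.23 (SE 0.61, limma adjusted p = 0.049) and would have been called by both limits, whereas without untreated replicate 3 it was 2.08 (SE 0.83, unadjusted p = 0.054), the adjusted p running from 0.012 to 0.45 over 18 alternatives. On the other strand *Gadd45a* is overlapped by the long noncoding RNA gene *E230016M11Rik*, which shares up to 565 bases with it at 98.8% identity. The libraries were strand-specific per the labels, but whether the quantification used the strand is not given in the sources used here. The values of *E230016M11Rik* were 0.881 to 1.26 untreated and 0.227 to 0.902 after LPS.

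*Gadd45g*, known as CR6 and induced by cytokines in lymphoid cells, lies on chromosome 13 (52000714 to 52002508, plus strand, ENSMUSG00000021453). It was listed at 68.6, 60.7 and 92.9 in the untreated and at 75.1, 66.8 and 56.0 in the LPS samples. These groups overlapped, with a mean of 74.1 ± 16.8 untreated and 66.0 ± 9.55 after LPS (SD, n = 3). The difference was -0.15 (SE 0.30, limma adjusted p = 0.79), and -0.64 (SE 0.36, adjusted p = 0.44) after scaling to the protein-coding sum, and its sign turned with quantile normalization, with voom and without untreated replicate 3. *Gadd45g* was the only member with a negative difference on the log2 scale both as deposited and after the protein-coding scaling. On the linear scale, the mean after that scaling was also lower with LPS for *Ier2* (59.4 untreated, 41.7 LPS) and *Mdm2* (19 and 18.5).

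Ratios of 2 genes within a sample do not depend on the factor of that sample, and 4 such ratios were computed. The log2 ratio of *Gadd45b* to *Gadd45g* was 1.62, 2.56 and 1.19 in the untreated and 3.72, 4.46 and 4.33 in the LPS samples. Every LPS sample was above every untreated sample, and the means of 1.79 ± 0.70 and 4.17 ± 0.40 (SD, n = 3) differed by 2.38. The two-sided exact permutation p was 0.10 (0.20 after Benjamini-Hochberg adjustment over the 4 ratios), which is the smallest that 3 against 3 samples can give. The log2 ratio of *Gadd45a* to *Gadd45g* was -4.15, -1.12 and -7.61 untreated and -0.81, 0.09 and -0.52 after LPS, again without overlap (difference 3.88, exact permutation p = 0.10, adjusted 0.20). Relative to *Gadd45g*, both paralogs were thus at a higher level in every LPS sample than in any untreated one.

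The promoters of the 3 GADD45 genes are shown because *Gadd45b* was the one member called and its paralogs were not. The sequences are from RefSeq on build GRCm38.p6, run 5′ to 3′ on the strand of the gene from 250 bases before to 50 bases after the start, and are not compared by position with the GRCm39 gene coordinates above. Capitals mark matches to the motifs that were searched on both strands.
Gadd45b (chr10:80929841-80930140, plus strand): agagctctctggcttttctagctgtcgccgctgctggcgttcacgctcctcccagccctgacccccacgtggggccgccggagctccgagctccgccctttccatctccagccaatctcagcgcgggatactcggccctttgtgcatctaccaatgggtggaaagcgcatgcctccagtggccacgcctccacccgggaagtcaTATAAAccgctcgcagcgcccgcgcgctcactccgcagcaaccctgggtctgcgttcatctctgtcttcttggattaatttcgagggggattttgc
Gadd45a (chr6:67037358-67037657, minus strand): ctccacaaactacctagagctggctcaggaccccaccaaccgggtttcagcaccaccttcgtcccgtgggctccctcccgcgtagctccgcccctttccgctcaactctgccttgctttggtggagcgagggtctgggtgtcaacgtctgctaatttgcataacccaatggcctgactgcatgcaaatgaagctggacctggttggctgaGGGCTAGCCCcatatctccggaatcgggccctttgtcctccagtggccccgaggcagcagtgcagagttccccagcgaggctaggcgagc
Gadd45g (chr13:51846425-51846724, plus strand): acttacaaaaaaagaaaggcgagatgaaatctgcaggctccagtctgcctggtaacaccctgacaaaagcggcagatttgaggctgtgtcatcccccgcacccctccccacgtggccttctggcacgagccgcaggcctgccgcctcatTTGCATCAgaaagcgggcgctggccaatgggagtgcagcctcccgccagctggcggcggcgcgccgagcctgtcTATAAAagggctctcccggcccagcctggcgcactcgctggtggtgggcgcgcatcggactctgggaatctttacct
In *Gadd45b* the capitals are a TATAAA from 46 to 41 bases before the start, and in *Gadd45g* a TATAAA from 27 to 22 bases before it. *Gadd45g* also holds TTGCATCA, a match on the other strand to TGATGNAA, the element bound by ATF4 with C/EBP factors. In *Gadd45a* the capitals are a match to the p53 decamer motif, a sequence that reads alike on both strands, from 40 to 31 bases before the start. The NF-κB consensus, the CArG box of SRF, the AP-1 motif TGANTCA (with C or G at N) and the heat shock element had 0 matches in the windows of the 8 members that were found in the promoter table. Of all 32851 promoter windows of the same length, 13.6% held TATAAA, 8.36% the p53 decamer, 3.97% TGATGNAA, 1.79% the CRE TGACGTCA, 4.51% the NF-κB consensus, 1.63% the CArG box, 5.20% the AP-1 motif and 0.603% the heat shock element. Among the 8 members, TATAAA was found in *Gadd45b*, *Gadd45g* and *Btg1*, the p53 decamer in *Gadd45a*, *Ier5* and *Mdm2*, and the CRE in *Btg2*. *Gdf15* held none of these motifs in either of its 2 windows. The promoter table did not match *Ier2*.

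*Gdf15*, a hormone-like cytokine whose receptor GFRAL signals with RET in the hindbrain, lies on chromosome 8 (71082038 to 71091537, minus strand, ENSMUSG00000038508). Its values were 15.9, 24.9 and 1.70 in the untreated samples and 73.4, 73.7 and 77.5 in the LPS samples. The LPS samples were close to one another and above every untreated sample, while untreated replicate 3 was low. The mean was 14.2 ± 11.7 untreated and 74.8 ± 2.29 after LPS (SD, n = 3), a 5.28-fold ratio and the largest of the members on the linear scale. The difference of 2.84 (SE 0.85) did not pass (limma unadjusted p = 0.015, adjusted p = 0.16), and was 2.41 (SE 0.82, adjusted p = 0.23) after scaling to the protein-coding sum. Without untreated replicate 2 it was 3.49 (SE 0.80, limma unadjusted p = 0.0075), which the limits of the study would have called, with an adjusted p of 0.10 (0.0072 to 0.39 over 18 alternatives), whereas without untreated replicate 3 it was 1.86 (SE 0.32), under the limit of 2. The gene *Gm34154*, on the other strand, was not analysed here. Of the receptor genes, *Gfral* was listed at 0 in all samples and *Ret* was at or below 0.407.

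*Btg1*, whose product binds the deadenylase subunits CNOT7 and CNOT8, lies on chromosome 10 (96452861 to 96458671, plus strand, ENSMUSG00000036478). It was listed at 302.4, 464.9 and 286.1 in the untreated and at 585.2, 700.2 and 605.3 in the LPS samples. All LPS samples were above all untreated ones, and replicate 2 was again the highest of each group. The mean was 351.2 ± 98.9 untreated and 630.2 ± 61.4 after LPS (SD, n = 3), a difference of 0.87 (SE 0.31) that did not pass (limma unadjusted p = 0.028, adjusted p = 0.22). After scaling to the protein-coding sum the difference was 0.38 (SE 0.25, adjusted p = 0.51). A stretch of 312 bases of *Btg1* is 98.7% identical to the processed pseudogene *Gm14519*, which was not analysed here, and its reads may have been split between the genes.

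*Btg2*, the paralog of *Btg1* known as a p53 target, lies on chromosome 1 (134002908 to 134015033, minus strand, ENSMUSG00000020423). Its values were 99.1, 118.2 and 117.6 in the untreated and 107.5, 218.9 and 164.4 in the LPS samples. LPS replicate 1 was below 2 of the untreated samples, and the groups overlapped. The difference was 0.49 (SE 0.35, limma adjusted p = 0.54), and 0.00 (SE 0.30) after scaling to the protein-coding sum. The log2 ratio of *Btg1* to *Btg2* was 1.62 ± 0.35 untreated and 2.00 ± 0.40 after LPS (SD, n = 3, exact permutation p = 0.40, adjusted 0.53). *Btg2* is overlapped on the other strand by the long noncoding RNA gene *Gm31974*, which was not analysed here.

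*Ier5*, whose product joins the phosphatase PP2A to HSF1 and can activate heat shock genes, is a gene of 1 annotated transcript on chromosome 1 (154972107 to 154975382, minus strand, ENSMUSG00000056708). It was listed at 280.2, 157.5 and 345.9 in the untreated and at 397.0, 443.0 and 515.5 in the LPS samples. All LPS samples were above all untreated ones, and untreated replicate 2, the highest untreated sample for *Gadd45a*, *Gadd45b* and *Btg1*, was here the lowest. The difference of 0.85 (SE 0.37) did not pass (limma unadjusted p = 0.062, adjusted p = 0.32), and after scaling to the protein-coding sum it was 0.36 (SE 0.46) with overlapping groups. The gene *Gm69473* overlaps *Ier5* on the same strand and was not analysed here.

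*Ier2*, a small nuclear protein gene induced within minutes by growth factors, also has 1 annotated transcript and lies on chromosome 8 (85387960 to 85389483, minus strand, ENSMUSG00000053560). Its values were 107.4, 7.72 and 24.3 in the untreated samples and 31.4, 67.3 and 50.1 in the LPS samples. The LPS samples fell between the lowest and the highest untreated value. The mean was 46.5 ± 53.4 untreated and 49.6 ± 18.0 after LPS (SD, n = 3), with the largest untreated SD relative to its mean apart from *Gadd45a*. The difference was 0.75 (SE 0.92, limma adjusted p = 0.67), 0.27 (SE 0.97) after scaling to the protein-coding sum, and -0.12 (SE 0.72) without untreated replicate 2. The log2 ratio of *Ier5* to *Ier2* was 3.19 ± 1.58 untreated and 3.25 ± 0.48 after LPS (SD, n = 3, exact permutation p = 1.00).

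*Mdm2*, itself switched on by p53, lies on chromosome 10 (117524780 to 117546730, minus strand, ENSMUSG00000020184). It was listed at 9, 21.2 and 17.5 in the untreated and at 21.8, 26.1 and 17.0 in the LPS samples. The groups overlapped, since LPS replicate 3 was below 2 untreated samples. The difference was 0.48 (SE 0.40, limma adjusted p = 0.55) and 0.01 (SE 0.37) after scaling to the protein-coding sum. The average for this gene may run over many transcripts, since 36 are annotated, and a stretch of 265 bases is shared with *Gm56970* on the other strand and one of 156 bases, at 95.5% identity, with *Lrrn4cl*, neither of which was analysed here.

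**Figure D2:**
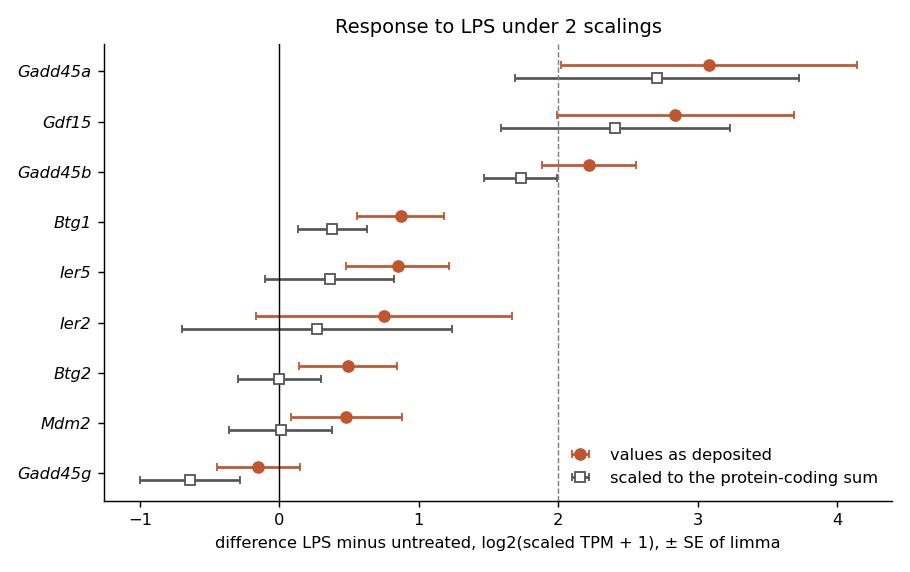
Difference between LPS and untreated samples on the log2(scaled TPM + 1) scale with the standard error of limma (n = 3 in each group), for the values as deposited (filled circles) and after scaling each sample to its protein-coding sum (open squares). The dashed line marks the limit of 2. *Gadd45b* has the smallest errors of the 3 members near or above that limit, and *Btg2* and *Mdm2* lie at 0.00 and 0.01 after the scaling.

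The order of the samples was not the same for all members. Among the untreated samples, replicate 2 was the highest for 6 of 9 members (*Gadd45a*, *Gadd45b*, *Btg1*, *Btg2*, *Gdf15* and *Mdm2*) and the lowest for the other 3 (*Gadd45g*, *Ier2* and *Ier5*). Among the LPS samples, replicate 2 was the highest for 6 members and the lowest for 0. This is the replicate with the lowest B cell and highest neutrophil marker sums in both groups. With replicate 2 of both groups left out, which was chosen after seeing the data, *Gadd45a* (difference 3.97, SE 0.69, limma adjusted p = 0.12) and *Gadd45b* (2.31, SE 0.20, adjusted p = 0.086) passed the limits of the study and 0 members passed the adjusted p.

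**Figure D3:**
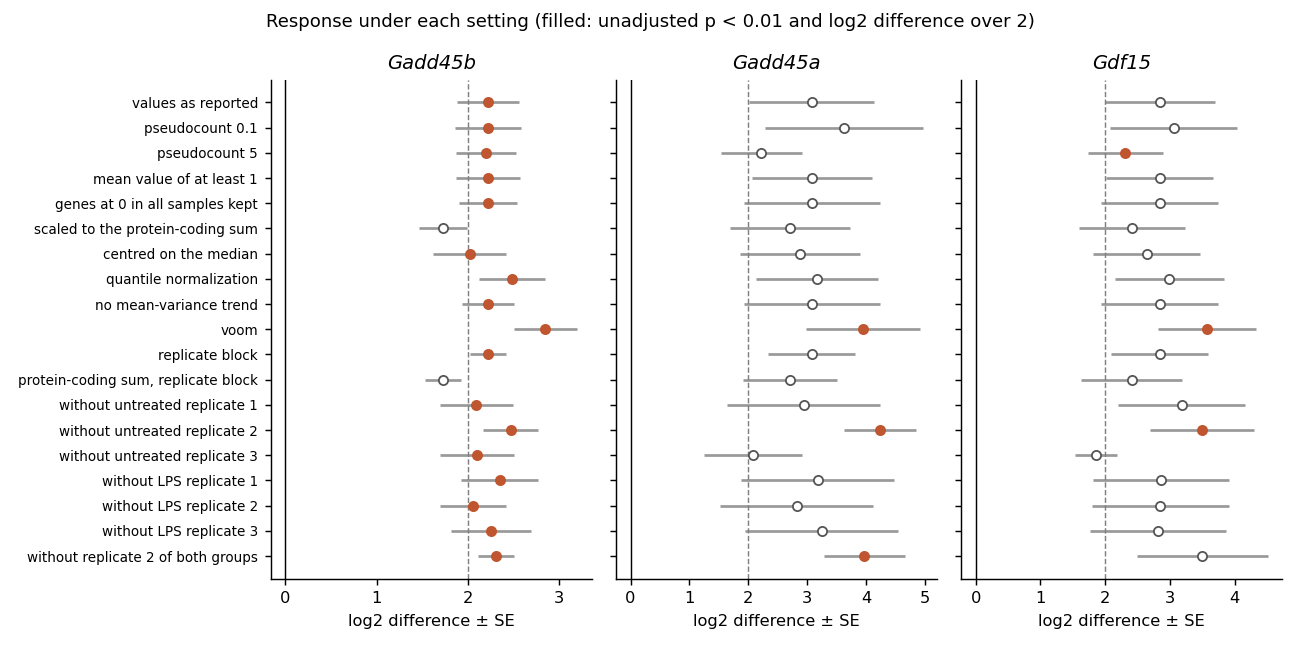
Difference between LPS and untreated samples with its standard error for *Gadd45b*, *Gadd45a* and *Gdf15* under the reported setting and 18 alternatives, with filled points where the limits of the study were passed and a dashed line at 2. *Gadd45b* passed in 16 of the 18 alternatives, *Gadd45a* in 3 and *Gdf15* in 3, and all differences were above 0.

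The 3 protein-coding genes whose pattern over the 6 samples was most like that of *Gadd45b*, by the root mean square difference of centred log2 values among 2842 genes, were *Bmt2* (0.15), *Oser1* (0.16) and *Slc31a2* (0.17). *Bmt2* encodes a regulator of nutrient signalling to mTORC1, *Oser1* an oxidative stress responsive protein and *Slc31a2* a copper transporter. *Bmt2* rose from 1.85 ± 0.612 to 11.9 ± 1.18 scaled TPM, *Oser1* from 3.37 ± 1.70 to 20 ± 1.17 and *Slc31a2* from 17.5 ± 8.99 to 93.1 ± 24.3 (SD, n = 3). By the same measure the closest pair of members was *Btg1* and *Btg2* (0.36), the closest member to *Gadd45b* was *Btg1* (0.68) and the closest to *Gadd45a* was *Gdf15* (0.64).

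Other genes of the same processes were taken from lists written from general knowledge, but with earlier results of these data known. Their counts thus describe the listed genes and are no test of a process. For scale, 1.69% and 0.894% of all genes were called higher by the limits of the study and by the adjusted p. Of the protein-coding genes with a mean of at least 5, 7.96% and 3.72% were. Of 27 p53 pathway genes tested, *Sertad1* and *Rps27l* were called higher by both limits and 0 lower, while 1 gene was lower at an unadjusted p under 0.05 by limma. The median difference of the list was 0.63, and 0.30 after scaling to the protein-coding sum, near the 0.51 and above the 0.07 of protein-coding genes with a mean of at least 5, while the median of all genes tested was 0.01 and -0.04. After the scaling both genes passed the limits of the study and *Sertad1* alone the adjusted p. *Sertad1*, a CDK4-binding regulator of the cell cycle, rose from 6.17 ± 1.33 to 46.0 ± 12.9 scaled TPM (SD, n = 3, limma adjusted p = 0.024). *Rps27l*, a p53 target similar to a ribosomal protein, rose from 1.31 ± 0.537 to 14.2 ± 5.54 (SD, n = 3, limma adjusted p = 0.043, and 0.087 after the scaling).

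A list of 22 genes held partners of the GADD45 proteins and other genes of p38 and JNK signalling and of cell cycle arrest. Only 13 of them were in the table and tested, so partners outside it were not examined. Of these 13, 0 passed either limit in limma, with 1 higher and 0 lower at an unadjusted p under 0.05. In 8 of 13 the difference was negative (median -0.07, and -0.30 after scaling). The 2 with the smallest p were *Map2k3*, a kinase that activates p38, and *Map3k5*, the kinase ASK1. *Map2k3* was at 15.6, 9.10 and 17.2 untreated and 32.6, 58.1 and 37.2 after LPS (limma adjusted p = 0.11), and *Map3k5* was at 4.49 ± 0.359 and 8.03 ± 1.94 (SD, n = 3, limma adjusted p = 0.31). The list of the BTG/TOB family and of the CCR4-NOT and PAN deadenylases also held *Parn*, *Pabpc1*, *Pabpc4* and *Prmt1*. Of its 16 tested genes, 0 passed either limit, with 3 higher and 1 lower at an unadjusted p under 0.05 in limma. The median was 0.37 (-0.03 after scaling). Of the genes of CCR4-NOT subunits, *Cnot2* was at 0.251 ± 0.0185 untreated and 2.64 ± 0.379 after LPS (SD, n = 3, limma adjusted p = 0.058), and *Cnot9* at 1.16 ± 0.799 and 4.73 ± 0.475 (adjusted p = 0.11). *Btg4* was listed at 0 in all samples.

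Of 29 other immediate early genes, 6 were called higher by both limits and 0 lower, 0 being lower even at an unadjusted p under 0.05 in limma, and the median was 0.71 (0.39 after scaling). After scaling to the protein-coding sum 6 passed the limits of the study and 5 the adjusted p. These were the transcriptional repressor gene *Nfil3*, the chemokine genes *Cxcl2* and *Cxcl1*, the A20 gene *Tnfaip3*, the AP-1 gene *Junb* and the cyclooxygenase gene *Ptgs2*. *Nfil3* rose from 2.35 ± 0.877 to 28.8 ± 7.58 scaled TPM (SD, n = 3, limma adjusted p = 0.021). *Cxcl2* rose from 139.0 ± 63.4 to 1703 ± 588.1, *Cxcl1* from 2.22 ± 0.777 to 114.1 ± 70.4 and *Tnfaip3* from 15 ± 11 to 163.2 ± 27.6 (SD, n = 3). In all of these each LPS sample was above each untreated sample. *Junb* rose from 70.6 ± 19.5 to 418.1 ± 130.9 (SD, n = 3, limma adjusted p = 0.037), 5.92-fold, beside 4.59-fold for *Gadd45b*.

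Of 26 genes of the integrated stress response, in which phosphorylation of eIF2α raises ATF4 and its targets, 4 were called higher by the limits of the study, 2 of them also by the adjusted p, and 0 were called lower (0 also at an unadjusted p under 0.05 in limma). The median was 0.87, and 0.50 after scaling. After scaling to the protein-coding sum, *Ppp1r15a* alone passed the limits of the study (difference 2.76), *Slc7a11* (1.81), *Herpud1* (1.61) and *Ppp1r15b* (1.58) being under the limit of 2, and 0 passed the adjusted p. The cystine transporter gene *Slc7a11* rose from 57.9 ± 12.5 to 284.4 ± 22.4 scaled TPM (SD, n = 3, limma adjusted p = 0.024), and the ER stress gene *Herpud1* from 6.28 ± 1.22 to 30.1 ± 9.66 (SD, n = 3, limma adjusted p = 0.049). *Ppp1r15a*, also known as GADD34, encodes a subunit that directs a phosphatase to eIF2α, and rose from 18.6 ± 12.5 to 158.3 ± 36.3 (SD, n = 3, limma unadjusted p = 0.0012, adjusted p = 0.053). Its relative *Ppp1r15b* rose from 6.98 ± 2.44 to 32.0 ± 12.6 (SD, n = 3, limma unadjusted p = 0.0023). Another list held heat shock genes linked to IER5 and HSF1 together with subunit genes of the phosphatase PP2A, and 19 of its genes were tested. Of these 19, 3 were called higher by the limits of the study (*Dnajb4*, *Hspd1* and *Hspa4*), 1 of them (*Dnajb4*) by the adjusted p. Called lower were 0 (0 also at an unadjusted p under 0.05 in limma). In 18 of the 19 the difference was positive, with a median of 0.99 (0.57 after scaling). After scaling to the protein-coding sum *Dnajb4* and *Hspd1* passed the limits of the study and 0 genes the adjusted p, which was 0.057 for *Dnajb4*. The co-chaperone gene *Dnajb4* rose from 0.954 ± 0.884 to 12.7 ± 2.41 (SD, n = 3, limma adjusted p = 0.040). *Hspd1*, the gene of the mitochondrial chaperonin, rose from 3.17 ± 3.47 to 39.2 ± 17.8, and *Hspa4*, a chaperone gene of the heat shock protein family, from 7.58 ± 6.09 to 40.6 ± 13.0 (SD, n = 3), with limma unadjusted p of 0.0023 and 0.0063.

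**Figure D4:**
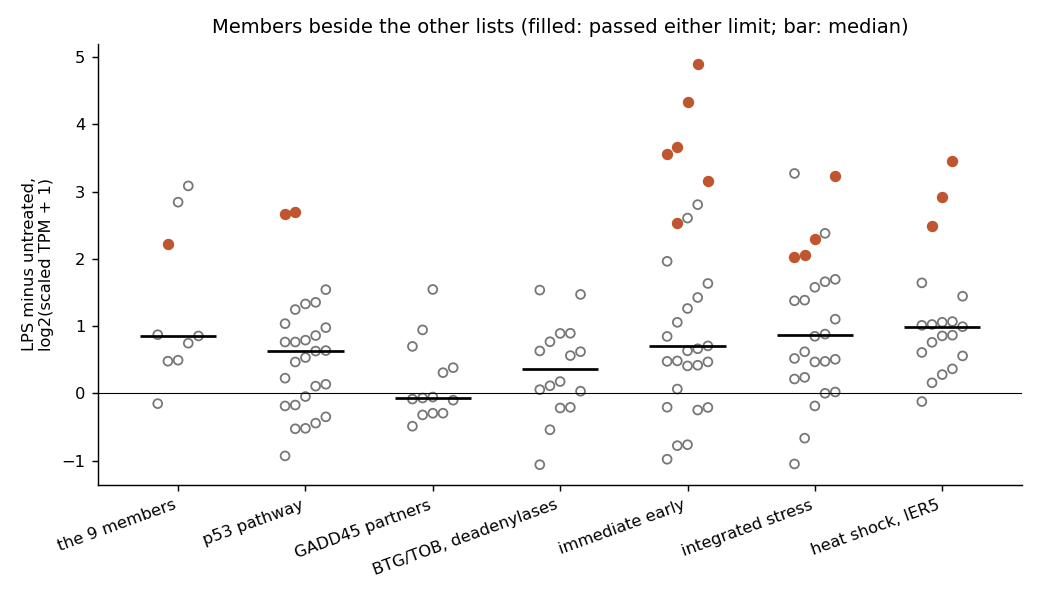
Difference between LPS and untreated samples on the log2(scaled TPM + 1) scale for each tested gene of the 9 members and of 6 lists, with a bar at the median of each and filled points for genes that passed either limit. The members have 1 filled point, *Gadd45b*, and a median of 0.85. The list labelled GADD45 partners, which also holds other genes of p38 and JNK signalling, has 0 filled points and a median of -0.07.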

How the data were processed

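RNA sequencing values of 3 untreated and 3 LPS samples were analysed, grouped by their titles. Per the labels and the study's methods, the authors prepared stranded libraries, used STAR with the GRCm39 build and Kallisto for quantification (fastp and the build mm10 are also listed), and the authors normalized and tested counts with edgeR and limma-voom. From their values, the deposited numbers are TPM, given per gene as a mean over transcripts and divided by a constant of each sample (0.861 to 1.12). After its removal, most values of single-transcript genes had the 6 digits that Kallisto writes (tolerance 0.12 of the last digit, about 24% by chance). The share was 96.9 to 98.8% in rows of full precision. It was 84.2 to 98.6% in later rows of 7 digits, where *Ier2*, *Ier5* and *Mdm2* lie. In untreated replicate 3, the *Gadd45a* value became a short decimal when multiplied by 7 and that of *Gadd45b* by 3, as a mean would give. Those of *Gadd45g*, *Btg1*, *Btg2* and *Gdf15* already were short, as 1 transcript would give. A mean over 2 or 4 transcripts, the numbers annotated for *Btg1* and *Btg2*, can also be short. The check thus does not tell 1 transcript from such a mean. Counts cannot be recovered from TPM, so the depth is unknown and the spread between samples is the only measure of precision.

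Genes listed at 0 throughout (15690) were not tested. limma 3.58.1 (R 4.3.3, eBayes with trend, two-sided) was run on log2(scaled TPM + 1), which understates the change of low genes. Genes were annotated by GENCODE M39, and transcripts compared with blastn 2.17.0 (95% identity over 150 bases). Named genes were the members, up to 5 called genes of each list (the 2 with the smallest p where none was called) and the 3 genes most like a called member. The members and lists were chosen with earlier results of these data known. Alternatives were pseudocounts of 0.1 and 5, filters, 3 other scalings, no trend, voom (which divides by each sample's sum), a replicate block and leaving out samples. The fit was tested on simulated data.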

Additional observations from a re-analysis of the deposited data

How the results depend on the processing

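With 3 samples a group and unknown depth, 0 members with a difference under 2 on the log2 scale passed the adjusted p of limma in the values as deposited. The limits of the study cannot call such a member, since they ask for a difference of more than 2. The limits of the study called 1 member, *Gadd45b*. They called 0 after scaling to the protein-coding sum, alone or with the replicate block (the latter chosen after seeing the data), 2 with a pseudocount of 5 (with *Gdf15*), 3 with voom (with *Gadd45a* and *Gdf15*), and 1 to 3 as samples were left out, 3 without untreated replicate 2 and 2 without replicate 2 of both groups. The adjusted p called 1 member, but 0 with genes at 0 kept, centred on the median, with the replicate block, or with the block and the protein-coding scaling, 6 with voom, and 0 to 2 as samples were left out, 0 without any sample other than untreated replicate 2. *Gadd45b* itself ran from 1.73 to 2.85 and in adjusted p from 0.0036 to 0.17. The sign of *Gadd45g* turned with quantile normalization (0.07), voom (0.48) and without untreated replicate 3 (0.02; -0.28 to 0.02 as samples were left out), and that of *Ier2* without untreated replicate 2 (-0.12, the lowest of -0.12 to 1.70 as samples were left out) or replicate 2 of both groups (-0.37). The cause was not tested. The other 7 members kept a positive sign in all 18 alternatives, though *Btg2* and *Mdm2* came to 0.00 and 0.01 after scaling to the protein-coding sum.

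Over all genes, calls by the limits of the study numbered 389 higher and 301 lower (56.4% higher), 221 and 516 after scaling to the protein-coding sum (30.0%), 310 and 414 centred on the median (42.8%), 1552 and 177 with voom (89.8%), 856 and 493 with a pseudocount of 0.1 and 129 and 168 with 5. By the adjusted p, 206 genes were called higher and 218 lower, 8941 and 452 with voom, 687 and 611 without the trend, 557 and 483 with a mean of at least 1, and 1 and 15 with the replicate block. The median difference of all genes moved from 0.01 to -0.19 when centred on the median, 0.15 with a pseudocount of 0.1 and 0.67 with voom. Deviations from the group means correlated by 0.102, 0.220 and 0.093 between same-numbered samples over 9403 genes. Each LPS sample correlated best with the untreated sample of its own number, but the labels give no pairing. With the block the difference of *Gadd45b* was 2.22 (limma adjusted p = 0.080), and the limits of the study called the same 1 member.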

Other observations

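*Gadd45gip1*, a gene named for the binding of its product to GADD45 proteins and known to encode a protein of the mitochondrial ribosome, was looked at after its values were seen. On chromosome 8 (GRCm39, 85558151 to 85563430, plus strand), its scaled TPM were 0.820, 0.562 and 1.04 in the untreated and 11.1, 3.94 and 10.4 in the LPS samples, all LPS samples above all untreated ones. It rose by the limits of the study, with a difference of 2.29 (SE 0.44, limma unadjusted p = 0.0019, adjusted p = 0.064), and was at 1.98 after scaling to the protein-coding sum, just under the limit of 2. *Ier5l*, a relative of *Ier5* also looked at after its values were seen, was at 0.106, 0.367 and 4.03 untreated and at 0.0635, 0.392 and 0.0529 after LPS, with overlapping groups and 1 high untreated sample (limma adjusted p = 0.55).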
